A study of Homo sapiens with 4 samples.

Results

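Neuropilins and plexins are cell-surface receptors, and the VEGFs are secreted growth factors that share the neuropilins with the semaphorins as ligands. The 9 genes described here are the neuropilins NRP1 and NRP2, the ligands VEGFA, VEGFB and VEGFC, and the plexins PLXNA1, PLXNB1, PLXNB2 and PLXND1. They were taken by name from the 28198 genes of the deposited table. Their mRNAs were followed in the triple-negative, mesenchymal breast cancer line MDA-MB-231. METTL3 had been depleted by shRNA in all cells and replaced, through lentiviruses, with wild-type METTL3 (METTL3 WT) or with METTL3 K177Q, a lysine-to-glutamine change that mimics acetylation. METTL3 is the catalytic subunit of the enzyme that writes N6-methyladenosine (m6A) on mRNA. Cells of both genotypes were treated with cycloheximide, which holds ribosomes in place, and lysates were run on sucrose gradients. Fractions were pooled into a sub-polysome part (ribosomal subunits and single ribosomes) and a polysome part (mRNAs with several ribosomes), and poly(A)-selected RNA of each was sequenced. There were 4 libraries, all of replicate 2, with 1 library for each combination of genotype and fraction. The spread between replicates is therefore unknown for every value below, and differences between libraries were not tested.

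NRP1 and NRP2 have short cytoplasmic tails without enzymatic activity and act as co-receptors: they bind class 3 semaphorins together with A-type plexins, and VEGFs together with the VEGF receptors. Plexins carry the signal inward through a cytoplasmic domain that acts on small GTPases of the Ras and Rap family, which lowers adhesion and reshapes the cytoskeleton, and B-type plexins and PLXND1 also bind semaphorins without a neuropilin. In breast cancer cells, which mostly lack the VEGF receptors of endothelium, neuropilins and plexins have been studied for their part in migration and invasion. NRP2 was one of the metastasis-related genes that the study followed. The study reported less m6A on NRP2 mRNA, and lower NRP2 mRNA and protein, in METTL3 K177Q than in METTL3 WT cells. Those measurements were of unfractionated cells, which the libraries described here do not include.

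Because the libraries divide mRNAs by the number of ribosomes they carry, the start codons of the 9 mRNAs are shown first. Each line gives 12 bases before and 9 bases after the start codon of the canonical GENCODE 44 transcript on GRCh38, 5′ to 3′, with the start codon in capitals. VEGFA has a second line, since its canonical model begins at a CTG codon and other models at an ATG codon 540 bases downstream in the same frame.
VEGFA: tgaccagtcgcgCTGacggacaga
VEGFA ATG: gcctccgaaaccATGaactttctg
VEGFB: ccggcgggcaccATGagccctctg
VEGFC: ggtccttccaccATGcacttgctg
NRP1: ggagaagggagaATGgagaggggg
NRP2: accttctccaaaATGgatatgttt
PLXNA1: ccccagcctgccATGccgctgcca
PLXNB1: tgccaggtgaccATGcctgctctg
PLXNB2: gtgcggggggcaATGgcactgcag
PLXND1: gcgcacgcccggATGgctcctcgc
These windows lie at chr6:43770695-43770718 and chr6:43771235-43771258 for VEGFA, chr11:64234822-64234845 for VEGFB, both on the plus strand, and chr4:176792300-176792323 on the minus strand for VEGFC. Those of the neuropilins lie at chr10:33334371-33334394 on the minus strand for NRP1 and chr2:205683279-205683302 on the plus strand for NRP2. Those of the plexins lie at chr3:126988582-126988605 on the plus strand for PLXNA1 and, on the minus strand, at chr22:50290573-50290596 for PLXNB2 and chr3:129606628-129606651 for PLXND1. The window of PLXNB1, on the minus strand, spans an exon junction between chr3:48424600-48425286.

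A purine 3 bases before the start codon, part of the sequence that favours initiation, was present in 8 of the 9 canonical mRNAs, the exception being PLXND1, and in 87.6% of 10290 mRNAs with a coding sequence that averaged 1 FPKM or more. A G right after the start codon was present in 4 of the 9 (NRP1, NRP2, PLXNB2 and PLXND1) and in 54.7% of those mRNAs. At least 1 ATG lay in the 5′ untranslated region of 8 of the 9, against 37.6% of all. NRP2 and PLXNA1 had 4 such ATGs each, NRP1 and VEGFC had 3, and VEGFA had 0 before its CTG codon and 1 before its ATG codon. The 5′ untranslated region ranged from 37 bases in PLXND1 to 790 in NRP2, with a median of 129 over all mRNAs. The coding sequences formed 3 size classes. Those of VEGFB, VEGFA and VEGFC were 624, 1188 and 1260 bases long, those of NRP1 and NRP2 2772 and 2781, and those of the plexins between 5517 (PLXNB2) and 6408 (PLXNB1). The median of all mRNAs was 1320 bases, and 2.56% had a coding sequence longer than that of PLXNB2. GGACT, the most usual form of the m6A motif, occurred on the mRNA strand in each of the 9 transcripts, from 2 copies in VEGFB and VEGFC to 14 in PLXNA1, and in 90.3% of all mRNAs.

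The values are FPKM as the authors deposited them, that is, fragments per kilobase of transcript scaled to the mapped fragments of each library. Summed over genes they came to between 767949 and 1037594 per library, and the file gives no counts. Taking the median of a low range of values as 1 fragment, the depth comes to between 24900000 and 26600000 fragments per library. The limits chosen for that range also bound the depth, so its likeness between libraries is not evidence for the approximation. The standard errors given below as counting errors rest on that approximation, cover counting only and say nothing of the variation between cultures. METTL3, whose endogenous and reconstituted mRNAs are pooled in the values, was at 9.39 (METTL3 WT) and 5.07 FPKM (METTL3 K177Q) in sub-polysomes and at 38.7 and 29.5 FPKM in polysomes. Its FPKM was thus 1.83-fold lower in sub-polysomes and 1.31-fold lower in polysomes of METTL3 K177Q cells. This difference goes along with genotype in every comparison below. Of the mesenchymal markers, 4 of 4 were detected, with VIM, the filament protein vimentin, at 677 FPKM or more in each library, and they summed to between 1034 and 2038 FPKM. The luminal markers ESR1 and PGR were at or below 0.0119 FPKM. CDH1 had 0.219 to 0.632, GATA3 2.83 to 4.95 and EPCAM 6.20 to 9.91 FPKM, and the 5 luminal markers summed to between 10.5 and 13.1 FPKM. The 5 endothelial markers summed to between 0.950 and 2.17 FPKM. An FPKM cannot tell fewer molecules per cell from fewer cells that express the gene.

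VEGFB and VEGFA, ligands of endothelial VEGF receptors, had the highest mean FPKM of the 9 mRNAs over the 4 libraries. VEGFA, the main angiogenic factor, on chromosome 6 from 43770211 to 43786487, had 52.6 FPKM in sub-polysomes and 53.8 in polysomes of METTL3 WT cells, and 62.2 and 83.9 in those of METTL3 K177Q cells. The METTL3 K177Q polysome library stood above the others. VEGFB, a ligand of FLT1 and NRP1, on chromosome 11 from 64234584 to 64239264, had 171.6, 48.5, 196.4 and 44.9 FPKM in the same order (sub-polysome and polysome of METTL3 WT, then of METTL3 K177Q). It was the highest of the 9 genes in both sub-polysome libraries, and its polysome values lay far below them in both genotypes. VEGFC, the lymphangiogenic ligand that also binds NRP2, on chromosome 4 from 176683538 to 176792922, had 32.5, 27.6, 31.5 and 28.2 FPKM.

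NRP1 was the prevailing neuropilin. It lies on chromosome 10 from 33177493 to 33334667 and had 31.1 FPKM in sub-polysomes and 32.7 in polysomes of METTL3 WT cells, and 36.0 and 37.2 in those of METTL3 K177Q cells. Both METTL3 K177Q values were above both METTL3 WT values. NRP2, on chromosome 2 from 205682501 to 205798131, had 2.26, 2.84, 2.18 and 3.45 FPKM in the same order, or about 400, 497, 360 and 602 fragments. Its METTL3 K177Q polysome value was the highest of the 4. NRP1 made up between 91.5% and 94.3% of the summed neuropilin FPKM.

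Among the plexins, PLXNB2, a receptor for class 4 semaphorins, on chromosome 22 from 50274979 to 50307646, was highest in each library. It had 26.2 FPKM in sub-polysomes and 46.7 in polysomes of METTL3 WT cells, and 28.9 and 57.8 in those of METTL3 K177Q cells. PLXNA1, a signalling partner of the neuropilins for class 3 semaphorins, on chromosome 3 from 126983115 to 127037389, had 12.8, 24.9, 11.9 and 33.4 FPKM. For both genes the polysome values lay above the sub-polysome values in both genotypes. PLXND1, a receptor for SEMA3E, on chromosome 3 from 129555214 to 129606676, had 7.02, 7.22, 8.15 and 10.3 FPKM. PLXNB1, the receptor for SEMA4D, on chromosome 3 from 48403854 to 48430086, was near the limit of detection with 0.0465, 0.424, 0.136 and 0.364 FPKM, or about 8.9, 80, 24.3 and 68.6 fragments. By its mean of 0.243 FPKM it was the 1 gene of the 9 below the minimum of 1 FPKM, and it is left out of the counts below, which cover the other 8 genes among 10905.

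**Figure D1:**
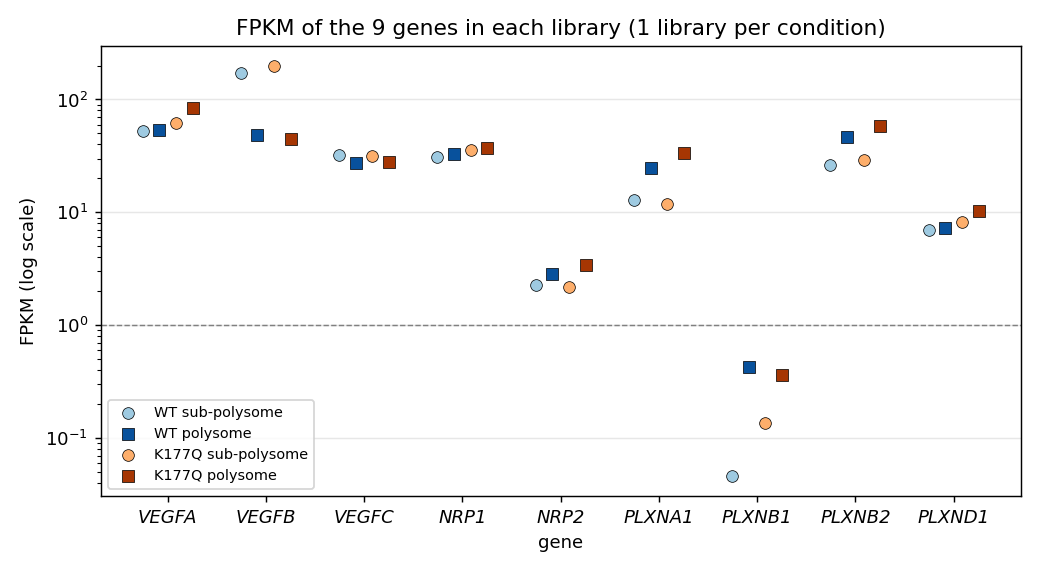
FPKM on a log axis for each of the 9 genes, with 1 point per library, circles for sub-polysome and squares for polysome, and METTL3 WT in blue and METTL3 K177Q in orange. The dashed line marks 1 FPKM, which only PLXNB1 stays under, and the points of VEGFB split into high sub-polysome and low polysome values.

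The order of the 9 genes by level was not the same in all libraries. VEGFB led in both sub-polysome libraries and VEGFA in both polysome libraries. PLXND1, NRP2 and PLXNB1 were the lowest, in that order, in each library. Between these ends, VEGFC and NRP1 had 32.5 and 31.1 FPKM in METTL3 WT sub-polysomes and stood in the opposite order in METTL3 K177Q sub-polysomes, with 31.5 and 36.0 FPKM. PLXNB2 was 5th in both sub-polysome libraries, 3rd in the METTL3 WT polysome library and 2nd in the METTL3 K177Q polysome library. Without replicate libraries, the spread behind any of these neighbours in the order is unknown.

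The log2 ratio of polysome to sub-polysome FPKM, with 0.1 added to both values, was taken as translation efficiency. In METTL3 WT cells it was highest, among the 8 genes, for PLXNA1 (log2 0.95, 1.94-fold) and PLXNB2 (log2 0.83, 1.78-fold), and lowest for VEGFB (log2 -1.82, 3.53-fold lower in polysomes). Thus 2 of the 8 genes were past 1.5-fold toward polysomes, against 28.1% of all genes, and 1 was past it toward sub-polysomes, against 19.1%. VEGFB lay below all but 2.82% of the genes. NRP2 had a log2 ratio of 0.32, NRP1 0.07, PLXND1 0.04, VEGFA 0.03 and VEGFC -0.23. The 8 genes had a median of 0.06 and all genes one of 0.14. The values of NRP1, PLXND1 and VEGFA lay so close to 0 that they turned negative with median-of-ratios size factors and when centred on the median of all genes.

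In METTL3 K177Q cells, PLXNA1 had a log2 translation efficiency of 1.49 (2.80-fold), higher than in 96.0% of genes, and the ratio of PLXNB2 was 2.00-fold. NRP2 was also past 1.5-fold, at log2 0.64 (1.56-fold), so that 3 of the 8 genes were past it toward polysomes, against 30.2% of all genes. NRP2 fell short of 1.5-fold, leaving 2 of the 8, with a pseudocount of 1 FPKM (1.40-fold), with size factors (1.45-fold) and with centring (1.39-fold). VEGFB was again the 1 gene at least 1.5-fold lower, at log2 -2.13 (4.37-fold lower), against 21.3% of all genes. VEGFA had 0.43, PLXND1 0.34, NRP1 0.05 and VEGFC -0.16. The median of the 8 was 0.39 and that of all genes 0.16. Rescaling to TPM, which gives each library the same total, moved the split of all genes here from 30.2% higher and 21.3% lower to 50.2% and 12.6%, and VEGFC then turned to 0.27, as it did, to 0.05, when totals were made equal without ribosomal protein genes. NRP1 turned negative with size factors and with centring. The polysome preference of PLXNA1 and PLXNB2 and the sub-polysome preference of VEGFB kept their direction and their place past 1.5-fold in both genotypes under each scaling of the libraries that was tried.

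**Figure D2:**
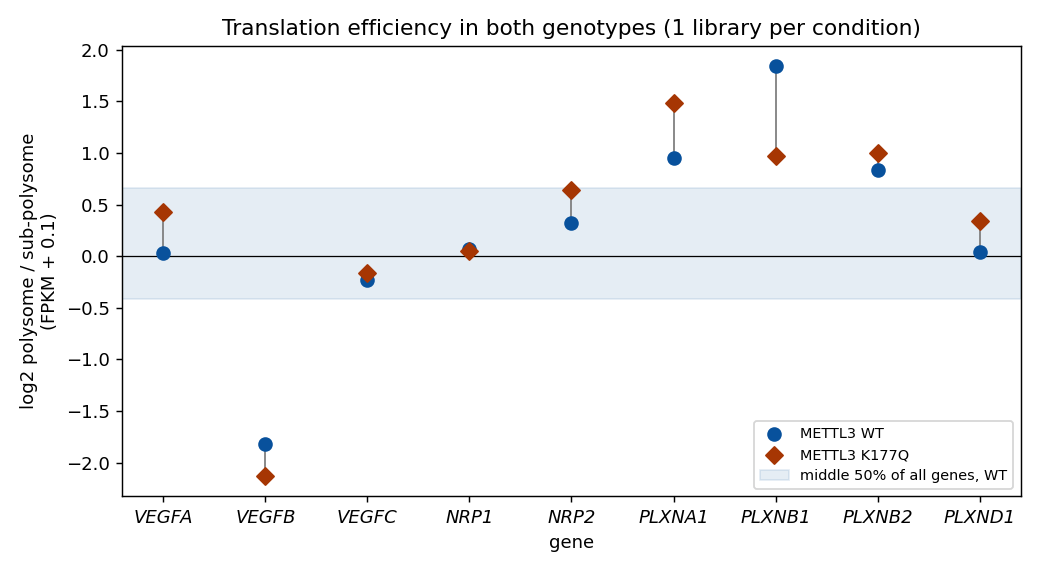
The log2 ratio of polysome to sub-polysome FPKM for each gene in METTL3 WT (circles) and METTL3 K177Q cells (diamonds), joined by a line, with the middle 50% of all genes in METTL3 WT cells shaded. PLXNA1 and PLXNB2 sit above the shaded band and VEGFB below it in both genotypes, and the points of PLXNB1, from few fragments, lie farthest apart.

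These libraries address how translation in METTL3 K177Q cells compares with that in METTL3 WT cells, 1 of several questions of the study. For these genes, the ratio of translation efficiency in METTL3 K177Q to METTL3 WT cells was above 1 for 6 of the 8, against 48.9% of all genes, but 0 of the 8 reached 1.5-fold in either direction. Of all genes, 4.08% reached it upward and 7.03% downward. PLXNA1 came nearest, at 1.45-fold (log2 0.53, counting error 0.045), higher than 94.7% of genes. Its distance to the threshold is about the size of that error. VEGFA followed with 1.32-fold (log2 0.40, counting error 0.038), then NRP2 with 1.25-fold (log2 0.32, counting error 0.14) and PLXND1 with 1.23-fold (log2 0.30, counting error 0.076). PLXNB2 had log2 0.16 and VEGFC 0.07, about the size of its counting error of 0.069. NRP1 had -0.02, within its counting error of 0.041. VEGFB had -0.31, a 1.24-fold lower value. The median of the 8 was 0.23, beside -0.01 for all genes. PLXNB1 had -0.87 with a counting error of 0.61, and with other pseudocounts it took values from -1.59 to -0.18.

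These ratios moved with the scaling of the libraries, since FPKM is relative to each library's total. Rescaling to TPM moved the median of all genes by 0.30. With it PLXNA1 (1.78-fold), VEGFA (1.62-fold), NRP2 (1.53-fold) and PLXND1 (1.51-fold) were past 1.5-fold, NRP1 changed sign to 0.28, and 18.6% of all genes were past 1.5-fold upward and 2.83% downward. Equal totals without ribosomal protein genes put PLXNA1 and VEGFA past 1.5-fold, as 2 of the 8, moved the median of all genes by 0.23, and gave NRP1 a value of 0.22. PLXNA1, VEGFA, NRP2 and PLXND1 were the upper 4 genes, in this order, in the deposited values, and VEGFB was the lowest of the 8. Both scalings multiply a whole library by a single factor and shift all genes almost alike. The same order under them was therefore nearly fixed in advance and shows nothing further.

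Within the polysome fraction, 7 of the 8 genes were higher in METTL3 K177Q cells, against 46.2% of all genes, and VEGFA was the 1 gene past 1.5-fold, at 1.56-fold (log2 0.64, counting error 0.026). Of all genes, 2.13% were past 1.5-fold upward and 3.13% downward in this fraction, and with TPM 3.46% and 2.38%. VEGFA lay above 98.4% of genes, PLXND1 (log2 0.51) above 97.0%, PLXNA1 (0.42) above 95.1%, PLXNB2 (0.31) above 90.0%, NRP2 (0.27) above 87.7% and NRP1 (0.19) above 80.1%. VEGFC had 0.03 and VEGFB -0.11. The median of the 8 genes was 0.29 and that of all genes -0.02. With TPM, PLXND1 was also past 1.5-fold, and no gene of the 9 changed direction in this fraction under any alternative.

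Within the sub-polysome fraction, 0 of the 8 genes reached 1.5-fold, against 4.01% of all genes upward and 2.94% downward, or 1.88% and 9.85% with TPM. On the log2 scale, METTL3 K177Q differed from METTL3 WT cells by 0.24 for VEGFA, 0.21 for NRP1 and PLXND1, 0.19 for VEGFB and 0.14 for PLXNB2, and by -0.04 for VEGFC, -0.05 for NRP2 and -0.11 for PLXNA1. The median of the 8 was 0.17, beside 0.00 for all genes. TPM moved the median of all genes by -0.20 in this fraction. Under it, and likewise with totals made equal without ribosomal protein genes, VEGFB and PLXNB2 turned negative, and NRP1, PLXND1 and VEGFA lay between 0.00 and 0.04. PLXNB1 had a log2 ratio of 0.69 from about 8.9 and 24.3 fragments, with a counting error of 0.57.

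**Figure D3:**
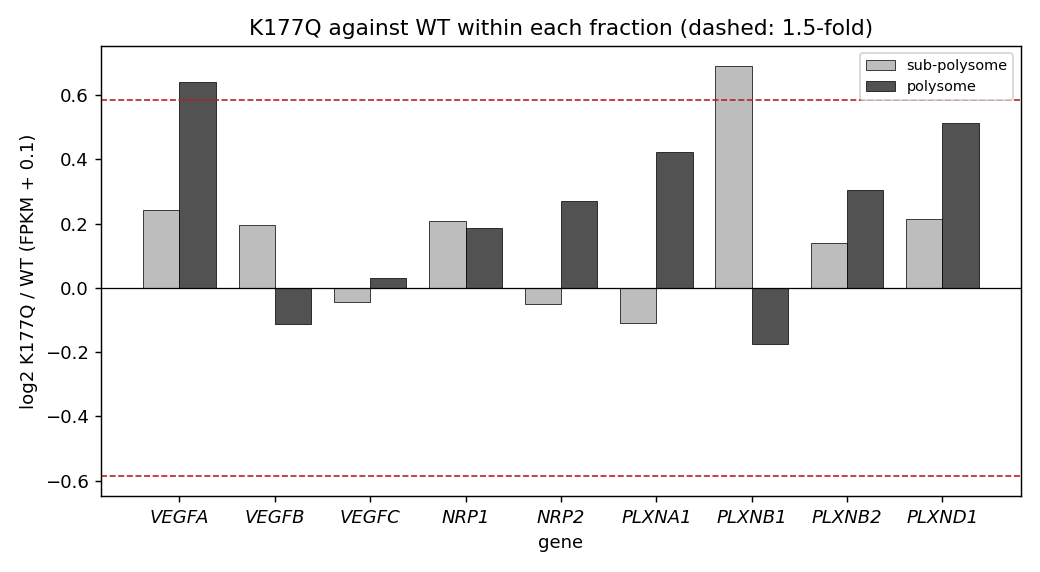
Difference in log2 FPKM, METTL3 K177Q over METTL3 WT, within the sub-polysome (light bars) and the polysome fraction (dark bars), with dashed lines at 1.5-fold. VEGFA crosses the line in polysomes, as the poorly detected PLXNB1 does in sub-polysomes, and the bars of VEGFB, VEGFC, NRP2, PLXNA1 and PLXNB1 point in opposite directions.

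In the deposited values, the fractions contributed differently from gene to gene. For NRP1, the FPKM was higher by a similar factor in both fractions of METTL3 K177Q cells (1.14-fold in polysomes, 1.16-fold in sub-polysomes). Its translation efficiency was thus almost as in METTL3 WT cells, but this balance depended on the scaling. With TPM, the polysome value of NRP1 was 1.21-fold higher, its sub-polysome log2 difference 0.0044 and its translation efficiency ratio log2 0.28. In the same order, totals made equal without ribosomal protein genes gave 1.17-fold, 0.01 and 0.22. For VEGFA, PLXND1 and PLXNB2 both fractions were higher in the deposited values, the polysome fraction more so. For PLXNA1 a higher polysome value (1.34-fold) came with a sub-polysome value 1.08-fold lower, and for NRP2 the polysome value was 1.21-fold higher with a sub-polysome log2 difference of -0.05, within its counting error of 0.10. VEGFB showed the reverse, 1.14-fold higher in sub-polysomes and 1.08-fold lower in polysomes.

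Ratios between genes of the same library do not depend on how that library was scaled. VEGFA, VEGFB and VEGFC together summed to 256.7 FPKM in METTL3 WT sub-polysomes, where VEGFB made up 66.8%, VEGFA 20.5% and VEGFC 12.7%. In METTL3 K177Q sub-polysomes the shares were nearly the same, 67.7%, 21.4% and 10.9%. In polysomes, VEGFA made up 41.4% and VEGFB 37.3% in METTL3 WT cells, against 53.4% and 28.6% in METTL3 K177Q cells. The ratio of VEGFA to VEGFB in polysomes was thus 1.11 in METTL3 WT and 1.87 in METTL3 K177Q cells, while in sub-polysomes it was 0.307 and 0.317. The ratio of VEGFA to VEGFC was 1.95 in METTL3 WT and 2.97 in METTL3 K177Q polysomes, and 1.62 and 1.97 in sub-polysomes. VEGFA thus held a larger part of the summed polysome FPKM of these ligands in METTL3 K177Q cells, against both others. PGF, another VEGF ligand, was not in the sum. It had 14.6 FPKM in METTL3 WT and 11.9 FPKM in METTL3 K177Q polysomes.

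**Figure D4:**
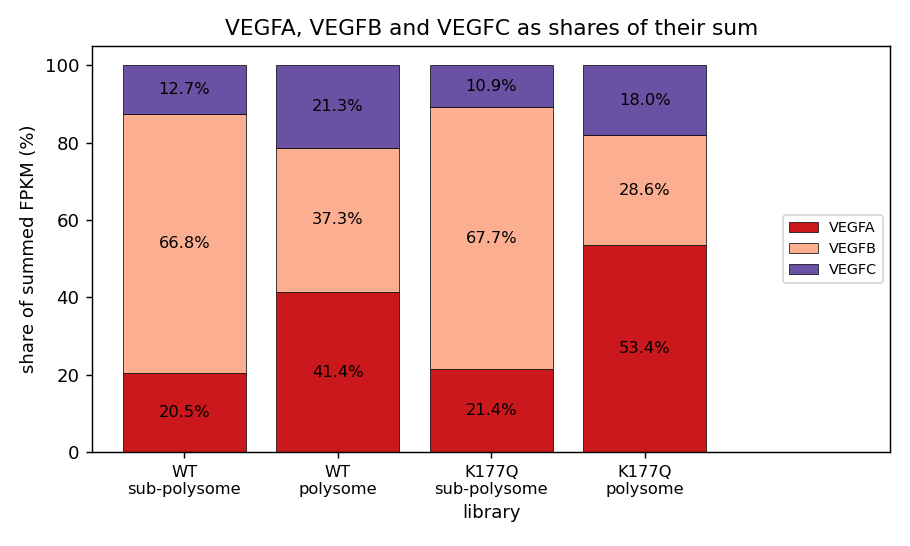
Shares of VEGFA, VEGFB and VEGFC in their summed FPKM in each of the 4 libraries, in percent. VEGFB fills 66.8% and 67.7% of the sub-polysome bars, and VEGFA fills 41.4% of the METTL3 WT and 53.4% of the METTL3 K177Q polysome bar.

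The receptors were compared in the same way. NRP1 exceeded NRP2 by 13.7-fold and 11.5-fold in the sub-polysome and polysome libraries of METTL3 WT cells and by 16.5-fold and 10.8-fold in those of METTL3 K177Q cells. PLXNB2 exceeded PLXNA1 by 2.04-fold and 1.88-fold in METTL3 WT and by 2.44-fold and 1.73-fold in METTL3 K177Q cells. NRP1 exceeded PLXNA1 by 2.43-fold in METTL3 WT and 3.04-fold in METTL3 K177Q sub-polysomes, but by 1.31-fold and 1.12-fold in polysomes. The co-receptor and its signalling partner were thus closest to equal FPKM in the METTL3 K177Q polysome library.

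Over all genes, the ratio of translation efficiency between genotypes was higher for longer coding sequences, and these genes span that range. A smooth trend on coding-sequence length, fitted over 10304 genes, stood at -0.18 at the length of VEGFB, at -0.03 at that of VEGFA, at 0.18 at those of NRP1 and NRP2 and at 0.26 at those of PLXNA1, PLXNB2 and PLXND1. With the trend removed, VEGFA had the highest log2 ratio of the 8, at 0.43, above 92.9% of genes. PLXNA1 then had 0.27 and NRP2 0.14, PLXND1 and VEGFC had 0.04 and 0.09, VEGFB had -0.13, PLXNB2 turned to -0.10 and NRP1 was at -0.20. With these lengths, the order of the 8 genes differed from that without the correction, in which PLXNA1 led, and 0 of the 8 were past 1.5-fold either way. The length used for VEGFA was that of its CTG model. On the same transcript, the ATG 540 bases downstream gives a shorter coding sequence, and the trend was lower at shorter lengths. The value of VEGFA would then be higher, but the trend was not refitted with that length. Even with the trend of -0.18 at the still shorter coding sequence of VEGFB, VEGFA would stay short of 1.5-fold.

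**Figure D5:**
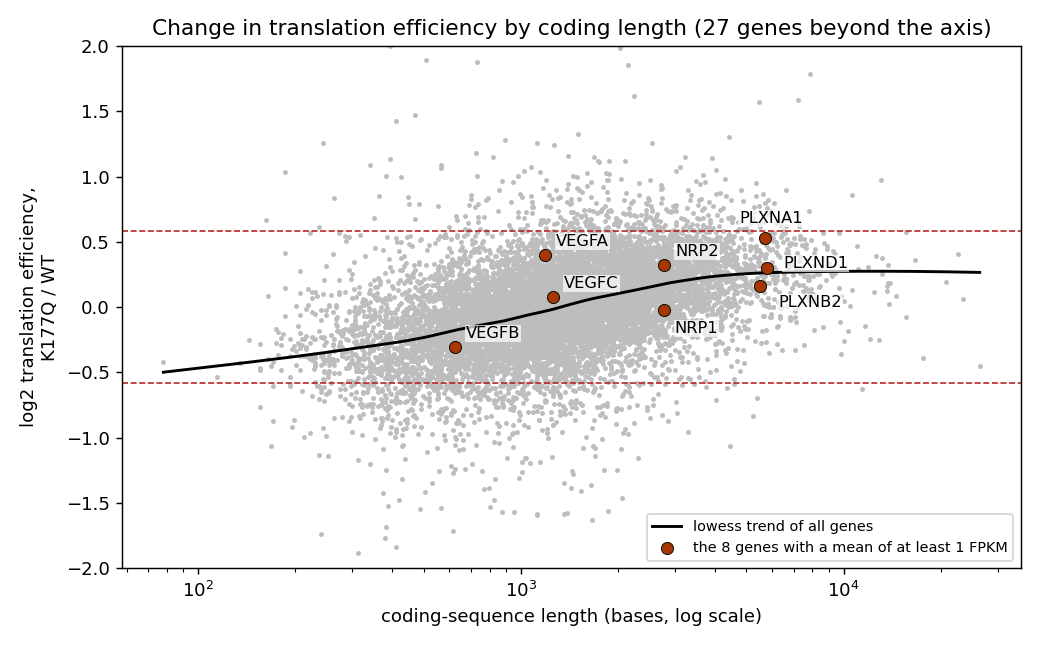
The log2 ratio of translation efficiency between METTL3 K177Q and METTL3 WT cells against coding-sequence length in bases on a log axis, for 10304 genes (grey; 27 lie beyond the axis) with their lowess trend (black line) and the 8 genes averaging 1 FPKM or more (filled circles). VEGFA lies well above the trend, the plexins lie where the trend is highest, and all 8 lie between the dashed lines at 1.5-fold.

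The VEGF receptors that would form complexes with the neuropilins were at low levels in these cells. KDR, the main receptor of VEGFA, had 0.712, 0.704, 0.641 and 1.08 FPKM in the METTL3 WT sub-polysome, METTL3 WT polysome, METTL3 K177Q sub-polysome and METTL3 K177Q polysome libraries, and FLT1 and FLT4 did not exceed 0.055 FPKM in any. Thus 0 of 3 passed the minimum of 1 FPKM. Of the other VEGF ligands, VEGFD did not exceed 0.0746 FPKM, while PGF, a ligand of FLT1 and the neuropilins, had 26.4, 14.6, 31.1 and 11.9 FPKM. Like VEGFB, PGF was lower in polysomes than in sub-polysomes in both genotypes (log2 -0.85 and -1.37), and its translation efficiency ratio was -0.52 with a counting error of 0.10.

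Of the 5 other plexins, 3 passed the minimum, and their median translation efficiency ratio was 0.19, with 0 of 3 past 1.5-fold. PLXNB3, the highest of them, had 2.69, 4.82, 2.80 and 5.71 FPKM. Its translation efficiency was 1.76-fold in METTL3 WT and 2.00-fold in METTL3 K177Q cells, beside 1.78-fold and 2.00-fold for PLXNB2. Among the class 3 semaphorins, the ligands of neuropilin and plexin complexes, 4 of 7 passed, with a median ratio of 0.08 and 0 past 1.5-fold. SEMA3B, which binds neuropilins, was the highest, with 26.2, 45.9, 28.4 and 55.4 FPKM. Of the 13 semaphorins of other classes, 8 passed, with a median of -0.11. Past 1.5-fold, 0 of them were higher and 2 lower, against 4.08% and 7.03% of all genes. The 2 were SEMA4G and SEMA6C, both at low levels and each 1.501-fold lower (log2 -0.59, counting errors 0.27 and 0.26). Both thus lay at the threshold within those errors. SEMA4G, with 0.774, 0.807, 1.62 and 1.09 FPKM, passed the minimum only through its METTL3 K177Q libraries, the higher of which also lowers its ratio, so the filter took part in this count. SEMA4B was the highest, with a ratio of 0.36.

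The genes most like NRP1, NRP2 and VEGFA over the 4 libraries were sought among the 5379 averaging 10 FPKM or more, by the distance between log2 values centred on each gene's mean. For NRP1 they were ARL6IP1 (distance 0.0094), PIM3 (0.049) and SLC17A5 (0.064). For NRP2 they were PI4K2A (0.049), ARHGEF2 (0.052) and ACTN4 (0.053). For VEGFA they were TMEM214 (0.12), THBS1 (0.14), the matrix protein thrombospondin 1, and CYB5R2 (0.14), so that even its closest genes lay farther away than those of the neuropilins. With 4 libraries, such likeness describes these values only.

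In the annotation, transcripts on the opposite strand share exon bases with 3 of the 9 genes, 561 bases with NRP1, 147 with NRP2 and 188 with VEGFA. The libraries kept strand, but whether the quantification used it is not given in the sources used here, so reads of these transcripts may be part of the values.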

How the data were processed

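RNA of 4 libraries of MDA-MB-231 cells was analysed, 1 per genotype and fraction. The authors deposited 1 table of FPKM per gene. The submitters' processing notes name STAR 2.7, StringTie 2.1.5 and hg38, and the annotation is not given in the sources used here. Another 4 value columns, of replicate 1 by their names, could not be tied to a listed sample and stayed out of every step, so replicates were not compared. The depth is unknown except by the approximation described with the values. FPKM times transcript length in kilobases was taken where it lay between 0.025 and 0.05, limits chosen after seeing the data. The median of that range was taken as 1 fragment, which was not tested. Lower values also occurred, such as VEGFD at 0.055 of such a fragment in METTL3 WT sub-polysomes.

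Groups followed the sample titles. Genes averaging 1 FPKM or more were kept, 0.1 FPKM was added before log2, and 1.5-fold, the study's threshold, was used for counts. With 1 library per condition there was no test. The calculation was tested on simulated data. The members and lists were chosen with earlier results of these data known. All 9 members are named. From the other lists, the genes past 1.5-fold in translation efficiency and the 1 gene with the highest mean are named, and for NRP1, NRP2 and VEGFA the 3 most similar genes. Transcripts are the canonical ones of GENCODE 44. A lowess trend (span 0.3) was fitted on coding-sequence length, which 94.5% of kept genes had. Alternatives were other pseudocounts, filters, scalings, centring, a 2-fold threshold and removal of that trend. Ribosomal protein genes were 88 genes chosen by symbol. Python 3.11.15, pandas 2.3.3, numpy 2.4.6, statsmodels 0.14.6 and matplotlib 3.10.9 were used.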

Additional observations from a re-analysis of the deposited data

Results flagged for a closer look

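The difference between METTL3 K177Q and METTL3 WT cells had opposite signs in the fractions for 2 of the 8 genes averaging 1 FPKM or more, by at least 0.1 on the log2 scale in both fractions. Of all 10905 genes, 20.6% met the same rule, so the count is near the background. PLXNA1 was higher in polysomes and lower in sub-polysomes (log2 0.42 and -0.11), a translation efficiency ratio of 0.53. VEGFB was lower in polysomes and higher in sub-polysomes (log2 -0.11 and 0.19), a ratio of -0.31. With 1 library per condition, neither difference between fractions was tested. Under TPM, and with totals made equal without ribosomal protein genes, the sub-polysome value of VEGFB turned to -0.01, while PLXNA1 kept opposite signs under both.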

How the results depend on the processing

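No paired analysis was possible because every condition had a single library, and for the same reason none could be left out. Medians and counts below cover the genes of the 9 that passed each filter. TPM gave medians of 0.19 for translation efficiency in METTL3 WT cells, 0.82 in METTL3 K177Q cells, with 5 genes at least 1.5-fold higher, and 0.53 for their ratio, with 4 genes higher. It also gave 2 genes higher in polysomes and a median of -0.038 in sub-polysomes. Equal totals without ribosomal protein genes gave 0.60 in METTL3 K177Q cells, 0.47 for the ratio, with 2 genes higher, and -0.032 in sub-polysomes. Size factors gave 0.28 in METTL3 K177Q cells, and centring on the median of all genes gave -0.089 in METTL3 WT and 0.22 in METTL3 K177Q cells. Removal of the trend on coding length gave 0.064 for the ratio. A minimum mean of 10 FPKM left 6 genes, with 0.24 in METTL3 K177Q cells and 0.12 for the ratio. Without a filter PLXNB1 entered as the 1 gene higher in sub-polysomes and the 1 gene lower in the ratio. A 2-fold threshold left 0 genes higher in METTL3 WT cells, 1 (PLXNA1) in METTL3 K177Q cells and 0 in polysomes. Of 278 values of single genes under the alternatives that can change them (pseudocounts, scalings, centring and trend removal), 103 moved by at least 0.1 on the log2 scale and 17 changed sign, none of them past 1.5-fold before. The depth limits PLXNB1 most.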

Other observations

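Genes downstream of the plexins and around VEGFA were described in the same way, by counts beside 4.08% of all genes at least 1.5-fold higher and 7.03% lower in translation efficiency. Of 15 plexin effectors, 12 passed the minimum of 1 FPKM, with a median log2 ratio between genotypes (METTL3 K177Q over METTL3 WT) of 0.10 and 2 past 1.5-fold higher. These were MICAL1, an enzyme that oxidizes actin, with 3.24, 5.87, 1.92 and 5.68 FPKM in the METTL3 WT sub-polysome, METTL3 WT polysome, METTL3 K177Q sub-polysome and METTL3 K177Q polysome libraries (log2 0.68, counting error 0.17), and RND1, which binds plexins, with 0.851, 0.792, 0.853 and 1.52 FPKM (log2 0.86, counting error 0.46). MICAL1 differed between genotypes mainly in the sub-polysome fraction (log2 -0.72) and RND1, from 34.4 to 66.1 approximate fragments per library, in the polysome fraction (0.86). RND1 passed the minimum only through its METTL3 K177Q polysome library, which also sets its ratio, so the filter took part in the count of 2. RHOA, the highest effector, had a ratio of 0.07.

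Of 6 neuropilin partners, 5 passed, with a median ratio of 0.11 and 0 past 1.5-fold. GIPC1, the adaptor that binds the tail of NRP1, was the highest, with 315, 521, 360 and 499 FPKM and a ratio of -0.26. Of 5 regulators of VEGFA, 5 passed, with a median of 0.30 and 0 past 1.5-fold. HIF1A, the hypoxia factor that activates VEGFA transcription, was the highest of them, with 38.8, 50.2, 39.2 and 62.3 FPKM and a ratio of 0.30.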
